A study of Ursus arctos with 12 samples.

Results

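Glucose and lactate cross the membrane of a muscle fibre through carriers, and 10 genes of this transport were followed in the thigh muscle of brown bears between the active season and hibernation. The genes were chosen by symbol for what they are known to do: SLC2A1, SLC2A3, SLC2A4, SLC2A8 and SLC2A12, which encode hexose transporters, TBC1D1 and TBC1D4, which hold the insulin-responsive transporter inside the cell, TXNIP, which limits glucose uptake, SLC16A3, a lactate exporter, and BSG, its chaperone. They are 10 of the 30249 genes counted, and all 10 had enough reads to be among the 17290 genes tested. The muscle was the vastus lateralis of 6 free-ranging Ursus arctos aged 2 to 3 years. Each animal gave a biopsy in winter, during hibernation, and another in summer, when it was active again. This gave 12 mRNA libraries, 6 per season. Both biopsies were taken from captured, anaesthetised animals. Fasting, inactivity, body temperature and the time of year change together in a hibernating bear, so their parts in any season difference cannot be told apart.

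Glucose enters muscle mainly through GLUT4, the product of SLC2A4, which rests in intracellular vesicles and moves to the surface when insulin or contraction calls for it. TBC1D4 (AS160) and TBC1D1 are GTPase-activating proteins that keep these vesicles inside until they are phosphorylated, TBC1D4 chiefly by AKT and TBC1D1 chiefly by AMPK. GLUT1 (SLC2A1) and GLUT3 (SLC2A3) carry basal glucose uptake in many cell types, with GLUT1 prominent at blood and nerve barriers. TXNIP binds thioredoxin, promotes the retrieval of GLUT1 and GLUT4 from the surface, and is itself induced by sugar. Lactate made by fast fibres leaves through MCT4 (SLC16A3), which needs basigin (BSG) to reach the membrane. Much of this system is regulated by protein location and phosphorylation, which an mRNA count does not measure.

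Of the 10 genes, 2 were lower in winter, the lactate exporter SLC16A3 and the intracellular hexose transporter SLC2A8, and 0 were higher, at an adjusted p below 0.05 in edgeR's quasi-likelihood test over all genes. Over all genes tested, 39.5% were called at this threshold, 19.9% lower and 19.6% higher, so the 2 of 10 lower genes were at the share of the whole table and the 0 of 10 higher genes below it. At an unadjusted p below 0.05, 1 gene was higher (TXNIP) and 3 were lower. TXNIP was also the 1 gene called higher by DESeq2 and by limma voom. Each of these tests called SLC2A12 lower as well (adjusted p = 0.0478 and 0.0470), for 3 lower genes. When edgeR took the pairing into account, SLC2A12 was called (adjusted p = 0.0260) and TXNIP was not (0.0663), giving 3 lower and 0 higher. Paired DESeq2 called SLC2A12 lower (0.0207) and TXNIP higher (0.0209). Both SLC16A3 and SLC2A8 also passed an adjusted p below 0.01 with a fold change below 0.77, as did 12% of all genes in this direction. The median log2 fold change of the 10 genes was −0.36, against −0.0021 over all genes. For none of the 10 were the winter and summer libraries fully separated, whereas 17.3% of all genes had seasons that did not overlap. The change had the same direction in all 6 bears for 2 of the 10 genes (20%), against 37.4% of all genes tested.

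**Figure D1:**
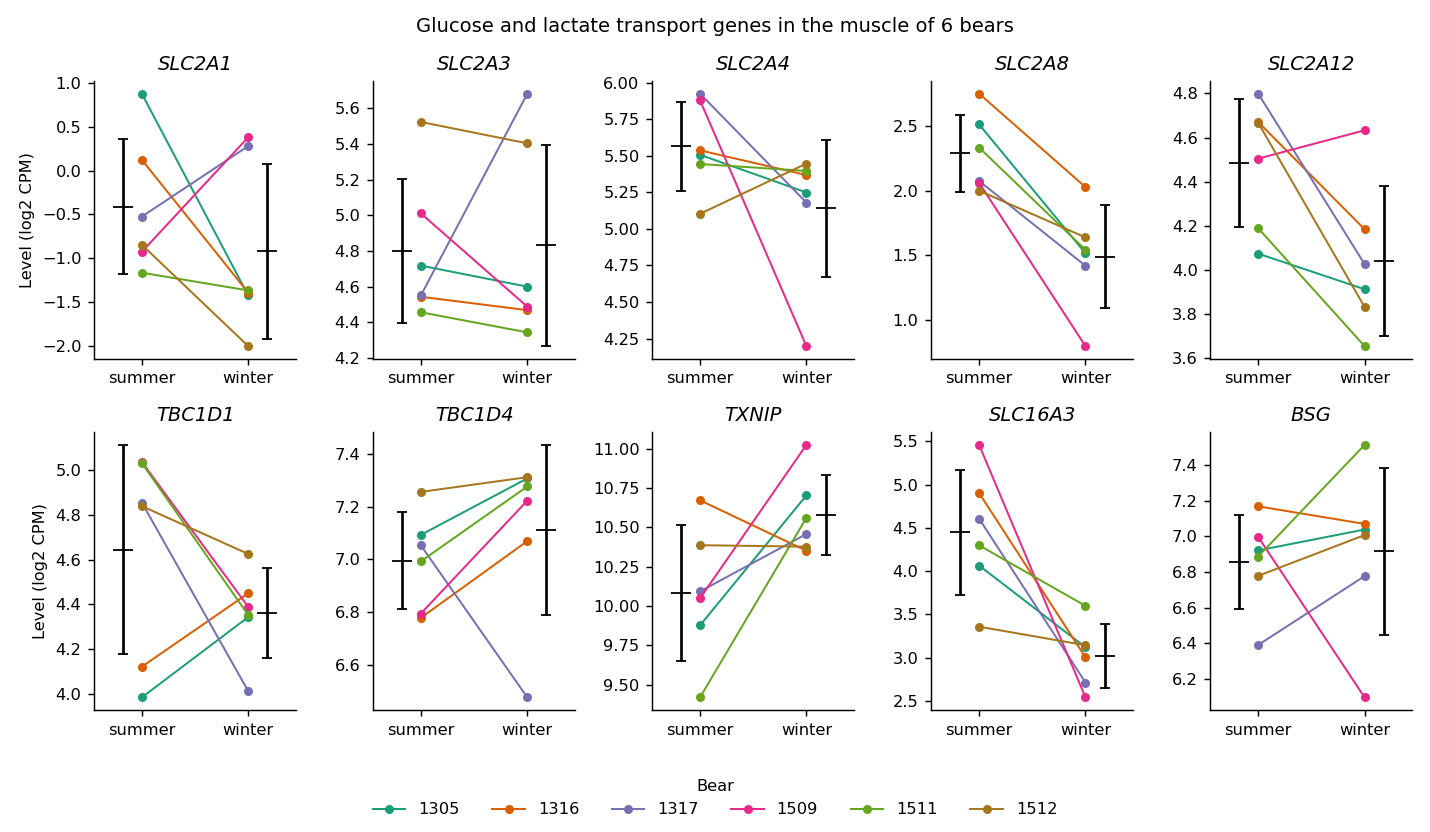
Level of each of the 10 genes (log2 CPM, each panel on its own scale) in the summer and winter library of 6 bears, a line joining the libraries of a bear. Black bars give the season mean and SD. SLC16A3 and SLC2A8 fell in 6 of 6 bears, and in the other panels the lines run in both directions.

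Between 16742406 and 32140160 reads were counted per library. The markers of skeletal muscle fibres summed to between 116774 and 188676 CPM (counts scaled to a common library size by TMM) in every library, so the labelled tissue was met. Of the 9 tested, 1 was higher in winter and 2 were lower. Other cells were also present. The summed level of the endothelial markers was 673 to 994 CPM in summer and 488 to 557 CPM in winter, with 5 of 9 tested lower and 2 higher. That of 10 leukocyte markers was 88.4 to 126 CPM in summer and 33.4 to 76.9 CPM in winter, with 4 lower and 0 higher, and 10 adipocyte markers ran from 550 to 1763 CPM in summer and from 384 to 920 CPM in winter, with 2 lower and 1 higher. Red cell markers summed to 61.3 to 110 CPM in summer and 77.3 to 120 CPM in winter, with 1 of 5 tested lower. These counts stand against 39.5% of all genes called, 19.9% lower and 19.6% higher. No marker in the table was at 0 in all libraries. In a bulk biopsy, fewer cells of a type and less RNA per cell cannot be told apart. The winter library of bear 1509 lay apart from the others on the second principal component, at −98.6 against 6.35 to 23.1 in the other winter libraries, and is named below where a value rests on it.

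SLC16A3 showed the largest season difference of the 10. Its level ran from 10.2 CPM in bear 1512 to 43.9 CPM in bear 1509 in summer, with a median of 21.9 CPM. In winter it ran from 5.74 CPM in bear 1509 to 12.03 CPM in bear 1511, with a median of 8.27 CPM. The seasons overlapped only through the summer library of bear 1512, since the other 5 summer libraries lay above every winter library. The log2 fold change was −1.54 (standard error, SE, 0.29, adjusted p = 0.00105), which left 0.344 of the summer level, and the gene was lower in 6 of 6 bears. Single bears differed widely in how much they changed, from −0.21 in bear 1512 to −2.92 in bear 1509. The bears spread less in winter (SD 0.37 log2 CPM, n = 6 bears) than in summer (SD 0.72), a difference in spread that was not tested. Without bear 1509 the log2 fold change was −1.19 (adjusted p = 0.00331), and the gene was called under all 15 alternatives of normalization, test, filter and left-out libraries, with adjusted p from 1.66e-06 to 0.00682.

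BSG was not called. Basigin, an immunoglobulin-family membrane protein, was counted at 83.8 to 144 CPM in summer, with a median of 120 CPM, and at 68.3 to 183 CPM in winter, with a median of 130 CPM. The winter range spanned the summer range on both sides, with bear 1509 lowest and bear 1511 highest. Its log2 fold change was 0.10 (SE 0.19, adjusted p = 0.702), with a 95% interval from −0.31 to 0.51. The gene was higher in 4 of 6 bears. Without bear 1509 the estimate was 0.26 and without bear 1511 −0.033, neither called.

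The ratio of SLC16A3 to BSG reads within a library does not depend on how libraries are scaled. On the log2 scale it ran from −3.43 to −1.54 in summer (median −2.43) and from −4.08 to −3.57 in winter (median −3.92). Here the seasons did not overlap, and the ratio fell in 6 of 6 bears, by 0.44 to 2.29. The mean within-bear difference was −1.49 ± 0.68 (SD over 6 bears), with p = 0.0312 in a two-sided exact permutation test that flips the sign of each bear. This is the smallest p that 6 bears allow, and adjusted over the 4 ratios tested it was 0.125. An exact permutation of the season labels over the 12 libraries, which ignores the bear, gave an adjusted p of 0.00866. This too is the smallest that such a permutation allows, since the seasons did not overlap. It treats paired libraries as independent, so it adds no support to the paired result.

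**Figure D2:**
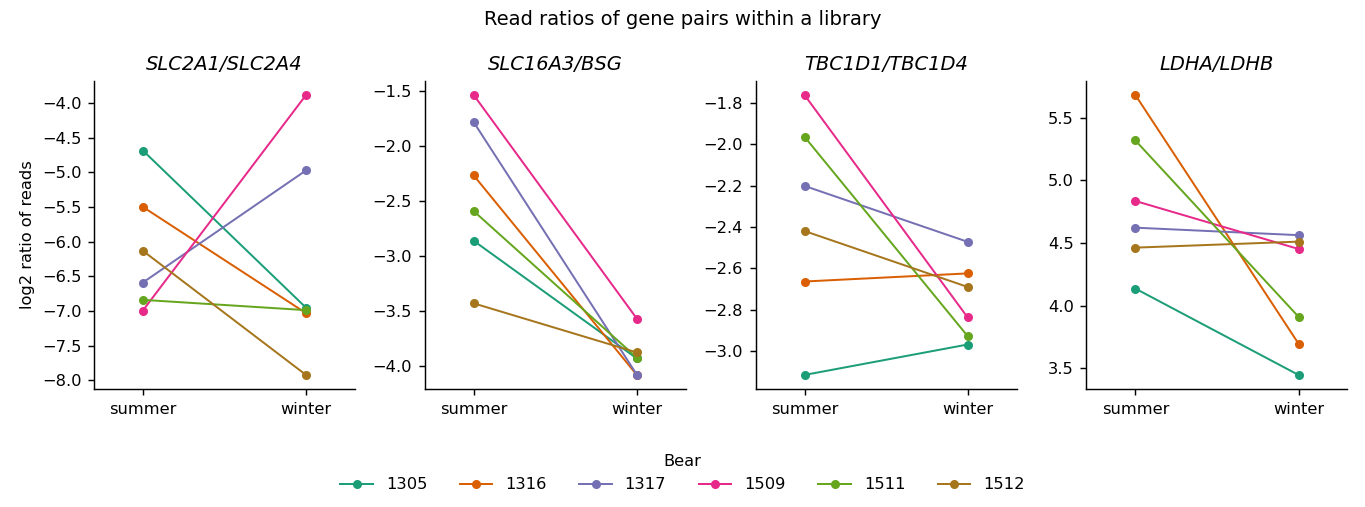
Log2 ratio of the reads of a gene pair within each library, by season, a line joining the libraries of a bear. The SLC16A3/BSG ratio was lower in winter in 6 of 6 bears, LDHA/LDHB in 5 of 6, and SLC2A1/SLC2A4 and TBC1D1/TBC1D4 in 4 of 6 each.

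SLC2A4, which encodes GLUT4, was not called. It was counted at 34.3 to 60.6 CPM in summer, with a median of 45.8 CPM, and at 18.3 to 43.5 CPM in winter, with a median of 39.6 CPM. One library stood out, the winter library of bear 1509 at 18.3 CPM, and in the other winter libraries the level was 36.2 CPM or more. The log2 fold change was −0.40 (SE 0.19, adjusted p = 0.115), with a 95% interval from −0.81 to 0.015, and the gene was lower in 5 of 6 bears. Without bear 1509 the estimate shrank to −0.19 (adjusted p = 0.307), and without its winter library alone to −0.26 (adjusted p = 0.144), and the adjusted p ran from 0.0545 to 0.307 across all alternatives.

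SLC2A12 encodes GLUT12, a further transporter found in muscle and fat that is reported to respond to insulin. Its level was 16.8 to 27.7 CPM in summer (median 24.0 CPM) and 12.5 to 24.7 CPM in winter (median 15.6 CPM). The winter library of bear 1509 was the highest of its season, and 4 of the 6 winter libraries lay below every summer library. The gene was lower in 5 of 6 bears, with a log2 fold change of −0.43 (SE 0.17, adjusted p = 0.0583). This lay just outside the threshold, and the call depended on the fit. With the bear as a replicate block the adjusted p was 0.0260, in DESeq2 0.0478, in DESeq2 blocked by bear 0.0207, in limma voom 0.0470 and with bear 1509 left out 0.0153, the alternatives running from 0.00739 to 0.183.

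The regulators of GLUT4 release showed no call. TBC1D1 was counted at 15.7 to 32.7 CPM in summer, with a median of 28.7 CPM, and at 16.05 to 24.6 CPM in winter, with a median of 20.6 CPM. Bears 1305 and 1316, lowest in summer, rose by 0.36 and 0.33 on the log2 scale, and the other 4 bears were lower in winter. The log2 fold change was −0.33 (SE 0.18, adjusted p = 0.168), with a 95% interval from −0.72 to 0.063.

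TBC1D4 was counted at 110 to 153 CPM in summer (median 130 CPM) and 89.1 to 159 CPM in winter (median 152 CPM). It was higher in 5 of 6 bears by at most 0.43 on the log2 scale, while bear 1317 went the other way at −0.57. The fitted log2 fold change was 0.13 (SE 0.14, adjusted p = 0.469), with a 95% interval from −0.16 to 0.43. Without bear 1317 it was 0.25 (adjusted p = 0.109). The log2 ratio of TBC1D1 to TBC1D4 reads had a mean of −2.35 in summer and −2.75 in winter, a within-bear difference of −0.40 ± 0.51 (SD over 6 bears; exact permutation p = 0.125, adjusted 0.167).

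SLC2A8, the second called gene, encodes GLUT8, a hexose transporter that stays mostly on intracellular membranes. It was counted at 3.91 to 6.63 CPM in summer (median 4.54 CPM) and at 1.66 to 3.99 CPM in winter (median 2.80 CPM), from 30 to 154 reads per library. In winter, 5 of the 6 libraries lay below every summer library, and the exception was bear 1316, the highest of both seasons. The log2 fold change was −0.79 (SE 0.21, adjusted p = 0.00782), or 0.578 of the summer level, and single bears lay between −1.26 and −0.36, lower in 6 of 6. The winter library of bear 1509 was the lowest of all, and without it the log2 fold change was −0.68 (adjusted p = 0.0101). SLC2A8 was called under all 15 alternatives, with adjusted p from 0.000838 to 0.0323.

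SLC2A3, a transporter with high affinity for glucose known best from neurons and leukocytes, was at 21.9 to 45.9 CPM in summer (median 24.8 CPM) and at 20.2 to 51.2 CPM in winter (median 23.3 CPM). Bear 1512 was high in both seasons, at 45.9 CPM in summer and 42.2 CPM in winter. Bear 1317 rose from 23.4 to 51.2 CPM, a change of 1.13 on the log2 scale, while the other 5 bears lay between −0.52 and −0.08. The fit gave 0.078 (SE 0.26, adjusted p = 0.832; 95% interval from −0.47 to 0.63), which became −0.19 without bear 1317 and −0.014 with library totals in place of TMM. The lower level of the leukocyte markers in winter stands beside this, and its part in the result was not tested.

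SLC2A1 had 5 to 48 reads per library. Its level was 0.359 to 1.75 CPM in summer (median 0.539 CPM) and 0.163 to 1.21 CPM in winter (median 0.297 CPM). The log2 fold change was −0.49 (SE 0.55, adjusted p = 0.503), and the 95% interval from −1.66 to 0.69 holds changes of either direction. Bears 1305, 1316, 1511 and 1512 were lower in winter and bears 1317 and 1509 higher, by 0.80 and 1.31 on the log2 scale. Without bear 1305 the estimate was 0.073.

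The 10 markers of perineurial and Schwann cells, barrier and sheath cells of nerve, summed to 95.2 to 141 CPM in summer and 90.9 to 228 CPM in winter, with 0 higher and 1 lower. The winter libraries of bears 1509 and 1317, the highest of their season in SLC2A1 at 1.21 and 1.13 CPM, were also the highest in this sum, at 228 and 186 CPM, whereas the summer library of bear 1305, with the most SLC2A1 (1.75 CPM), stood at 136 CPM and was not the highest. This was seen after the values were known, and the part of nerve in the SLC2A1 level was not tested. The log2 ratio of SLC2A1 to SLC2A4 reads moved by −0.17 ± 2.14 between the seasons (SD over 6 bears; exact permutation p = 0.812, adjusted 0.812), a difference within the spread between bears.

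TXNIP was at 684 to 1631 CPM in summer (median 1075 CPM) and at 1306 to 2081 CPM in winter (median 1457 CPM), from 17150 to 40830 reads per library. In 4 of the 6 bears the summer level lay below every winter level. These bears, 1305, 1317, 1509 and 1511, rose by 0.36 to 1.14 on the log2 scale, whereas bear 1316 changed by −0.32 and bear 1512 by −0.0092, their summer levels being the highest. The log2 fold change was 0.46 (SE 0.19, adjusted p = 0.0664), or 1.38 times the summer level, with a 95% interval from 0.056 to 0.87. The gene was thus not called, and the call changed with the test and with 1 bear. The adjusted p was 0.0369 in DESeq2, 0.0209 in DESeq2 blocked by bear and 0.0441 in limma voom, but 0.0663 in edgeR blocked by bear. It was 0.0181 without bear 1316, and from 0.0640 to 0.206 without each of the other bears. The winter library of bear 1509 was the highest of all, and without it the log2 fold change was 0.36 (adjusted p = 0.137). Across all alternatives the adjusted p ran from 0.0181 to 0.206.

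**Figure D3:**
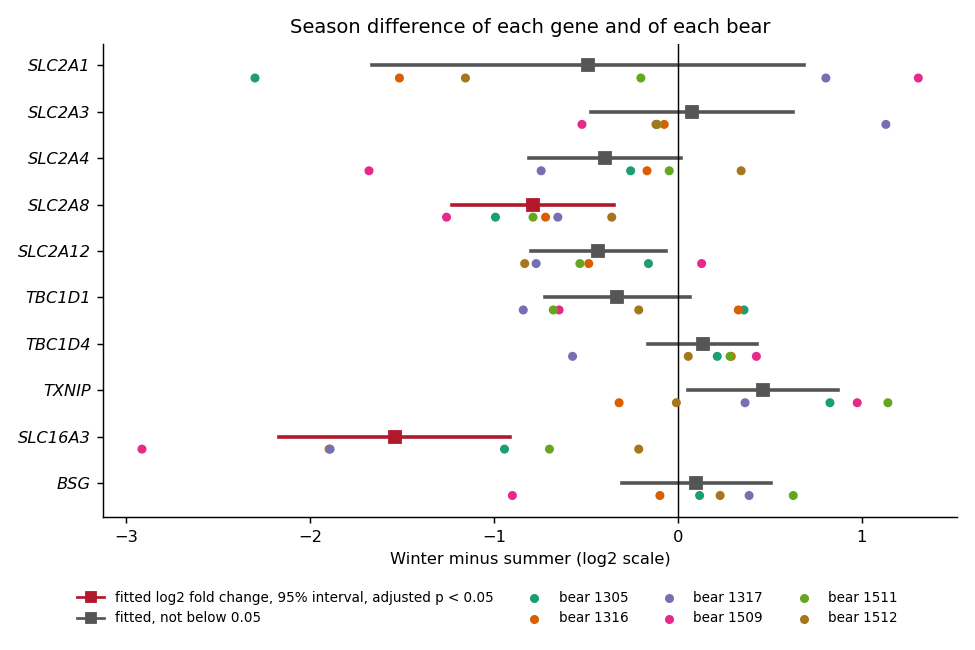
Winter minus summer on the log2 scale for each gene. Squares and bars give the edgeR estimate with its 95% interval, in red for the 2 genes with an adjusted p below 0.05, and the dots below give the 6 bears, some of which overlap. The SLC16A3 and SLC2A8 dots all lie left of 0, while TXNIP has 4 of 6 bears to the right of 0.

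Other genes of glucose and lactate handling were taken from 6 lists, of which 103 genes were tested. Of these, 17 were higher and 26 lower in winter, 60 were not called, and the median log2 fold change was −0.10. The share called, 41.7%, was close to the 39.5% of all genes, with 16.5% higher against 19.6% and 25.2% lower against 19.9%. Among the other hexose transporters, 1 of 10 was higher and 4 were lower, against 19.6% and 19.9% of all genes, with a median of −0.47. SLC50A1, a sugar transporter of the SWEET family, rose by 0.64 (SE 0.15, adjusted p = 0.00474) on the log2 scale. SLC2A11 fell by 0.87 (SE 0.23, adjusted p = 0.00784), and SLC2A10, mutated in arterial tortuosity, fell by 1.49 (SE 0.36, adjusted p = 0.00472) at 7 to 68 reads per library. SLC5A2, the sodium-coupled glucose transporter of the kidney, fell by 1.93 (SE 0.53, adjusted p = 0.0108) but had only 1 to 30 reads.

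Of 14 other monocarboxylate transporters and partners, 4 were lower (28.6%, against 19.9% of all genes) and 0 higher in edgeR (against 19.6%), with 0 higher at an unadjusted p below 0.05. The share called in either direction was thus below the 39.5% of all genes. The median log2 fold change was −0.16. SLC16A6 fell by 2.03 (SE 0.30, adjusted p = 0.000196), though it had only 7 to 67 reads per library. Its seasons did not overlap, as in 17.3% of all genes. SLC16A4, an orphan of the family with 3 to 18 reads, fell by 1.46 (adjusted p = 0.00345). MPC1, at 1688 to 6742 reads per library, fell by 0.67 (SE 0.17, adjusted p = 0.00579). SLC16A7, which encodes the high-affinity carrier MCT2, fell by 0.73 (SE 0.22, adjusted p = 0.0188), but was not called without bear 1316 (adjusted p = 0.0904, within 0.00809 to 0.0904 across all alternatives). EMB, embigin, the other chaperone of these carriers, was at 8 to 34 reads and was lower in 6 of 6 bears, at −0.55 (SE 0.28, adjusted p = 0.134), and not called. SLC16A1, which encodes the lactate carrier of oxidative fibres, was not analysed here.

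Enzymes act on glucose and lactate on either side of these transporters. Of 10 genes for glucose phosphorylation and lactate dehydrogenase, 5 were lower and 0 higher in edgeR, against 19.9% and 19.6% of all genes, and no gene was higher even by unadjusted p (0 below 0.05). The median was −0.68. HK2, the hexokinase that traps the glucose brought in by GLUT4, fell from 6.89 ± 0.39 to 6.06 ± 0.18 log2 CPM (SD over 6 bears), a log2 fold change of −0.87 (SE 0.16, adjusted p = 0.000976). LDHA, whose product favours lactate formation, fell from 12.20 ± 0.26 to 10.75 ± 0.38 log2 CPM, a log2 fold change of −1.43 (SE 0.19, adjusted p = 8.33e-05). LDHB stood at −0.73 (SE 0.21, adjusted p = 0.0132), with an adjusted p of 0.0575 without bear 1317 (0.000912 to 0.0575 across all alternatives). G6PC3, a widely expressed glucose-6-phosphatase, fell by 1.75 (SE 0.21, adjusted p = 3.98e-05). These 4 genes were lower in 6 of 6 bears, although LDHB in bear 1511 changed by only −0.00051 on the log2 scale, and the seasons of HK2, LDHA and G6PC3 did not overlap. The log2 ratio of LDHA to LDHB reads had a median of 4.73 in summer and 4.18 in winter, lower in 5 of 6 bears by a mean of −0.75 ± 0.80 (SD over 6 bears; exact permutation p = 0.0625, adjusted 0.125).

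Of 46 genes of GLUT4 vesicle traffic, 9 were higher and 6 lower, with a median of −0.012. The 19.6% higher equalled the share of all genes, and the 13.04% lower and 32.6% called in all were below the 19.9% and 39.5% of all genes. VAMP2, the vesicle SNARE that fuses GLUT4 vesicles with the surface, rose by 0.86 (SE 0.11, adjusted p = 7.01e-05), and CAV3, the muscle caveolin, by 0.81 (SE 0.18, adjusted p = 0.0032). MYO5B, a myosin motor for vesicles, rose by 3.61 (SE 0.37, adjusted p = 1.49e-05) from a low level, with 4 to 140 reads per library. RAB28 fell by 0.97 on the log2 scale (adjusted p = 6.23e-05) and RHOQ (TC10), a small GTPase of the insulin response, fell by 0.74 (adjusted p = 0.0007). LRP1, a large endocytic receptor that is also found in GLUT4 vesicles, fell by 0.86 (adjusted p = 0.0253). Leaving out bear 1305 (adjusted p = 0.0926), 1317 (0.0653) or 1509 (0.0785) ended the call. With the bear as a replicate block the adjusted p was 0.00226 in edgeR and 4.63e-06 in DESeq2. Across all alternatives it ran from 4.63e-06 to 0.0926. Both classic residents of the GLUT4 vesicle were not called, LNPEP (IRAP) at −0.34 (SE 0.15, adjusted p = 0.098) and SORT1 (sortilin) at 0.13 (SE 0.15, adjusted p = 0.523).

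Around TXNIP, 2 of 12 relatives, partners and sugar sensors were higher (16.7%, against 19.6% of all genes) and 6 lower (against 19.9%), with a median of −0.22. Among the lower ones were MLXIPL (ChREBP), a sugar-sensing transcription factor that acts on TXNIP, at −1.03 (SE 0.21, adjusted p = 0.00151), and its partner MLX at −0.66 (SE 0.12, adjusted p = 0.000836). ARRDC3, an arrestin of the same family, stood at −0.57 (adjusted p = 0.0104). ARRDC4, the closest relative of TXNIP, had a summer mean of 4.28 ± 0.16 and a winter mean of 4.39 ± 0.20 log2 CPM (SD over 6 bears), a log2 fold change of 0.11 (SE 0.12, adjusted p = 0.459). The ubiquitin ligases NEDD4L and ITCH, the second of which marks TXNIP for degradation, rose by 0.75 (SE 0.14, adjusted p = 0.00102) and 0.38 (SE 0.092, adjusted p = 0.00459). Scaling by library totals ended the ITCH call (adjusted p = 0.0613, with 0.000165 to 0.0613 across all alternatives).

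Of 11 regulators of the GLUT4 gene, 5 were higher and 1 lower, against 19.6% and 19.9% of all genes, with a median of 0.24, while SLC2A4 itself was not called. MEF2A and MEF2C, factors that bind the SLC2A4 promoter, rose by 0.92 (SE 0.13, adjusted p = 0.000176) and 1.15 (SE 0.13, adjusted p = 2.35e-05). The seasons of each did not overlap, as in 17.3% of all genes. SLC2A4RG, the GLUT4 enhancer factor, rose by 1.88 (SE 0.40, adjusted p = 0.00215), with 25 to 239 reads per library. KLF15, a fasting- and glucocorticoid-responsive factor that can activate SLC2A4, fell by 1.34 (SE 0.31, adjusted p = 0.00394). MEF2A, MEF2C and SLC2A4RG were higher, and KLF15 lower, in 6 of 6 bears, while 37.4% of all genes had 1 direction in all bears.

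**Figure D4:**
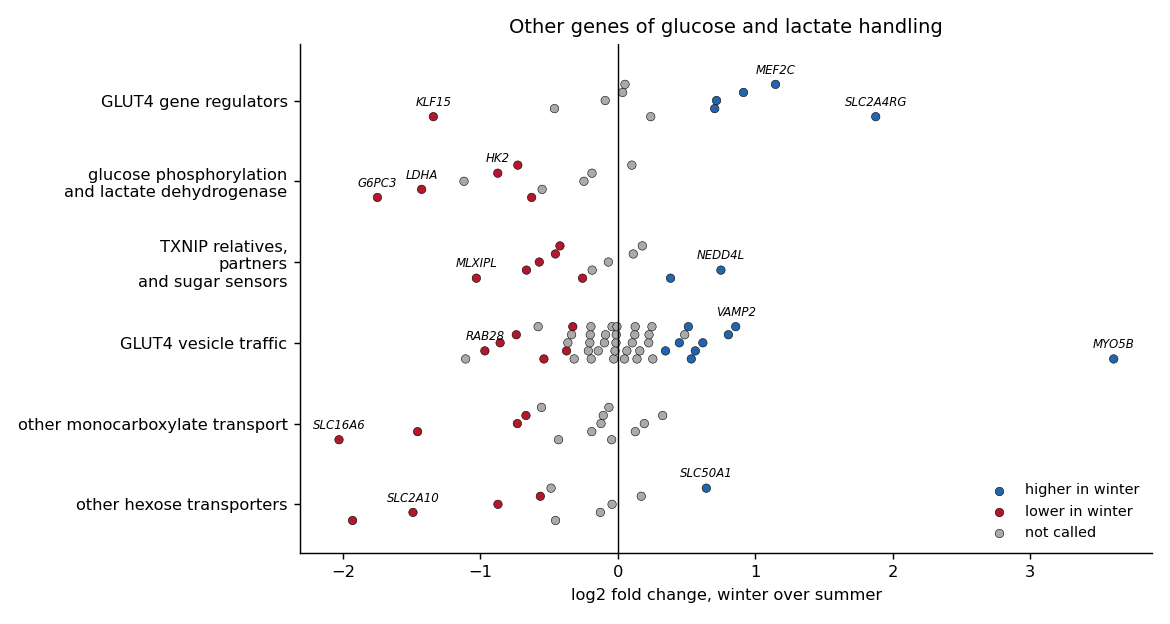
Log2 fold change (winter over summer) of the 103 tested genes of 6 lists, 1 dot a gene, in blue for higher, red for lower and grey for not called at an adjusted p of 0.05. The dots of glucose phosphorylation and lactate dehydrogenase hold 5 red and 0 blue dots, those of the GLUT4 gene regulators 5 blue and 1 red. Over the 6 lists, 17 dots are blue and 26 red, 41.7% of the 103 genes. Of all genes tested, 39.5% were called, 19.6% higher and 19.9% lower. The lists were chosen with earlier results of these data known.

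The genes with the profiles nearest to 3 of the transport genes were found by the root mean square distance between levels centred on their mean over the 12 libraries, among 13490 genes with a symbol. For SLC2A4, which itself deviated by 0.42 log2 units from its mean, they were KCND1 (distance 0.13), a potassium channel, POLG (0.13), the polymerase of mitochondrial DNA, and RDH13 (0.14), a retinol dehydrogenase. Like SLC2A4, these 3 were not called. Profiles include the season difference, so the calls and fold changes of genes found this way follow in part from the choice. For TXNIP, with a deviation of 0.41, they were FAXDC2 (0.22), MSRB2 (0.22) and SHPK (0.23), of which FAXDC2 was called higher, at 0.45 (SE 0.16, adjusted p = 0.0343). For SLC16A3, with a deviation of 0.89, they were CDCP1 (0.27), AGRN (0.31), the organiser of the neuromuscular junction, and EXTL1 (0.34), called lower at −1.87, −1.40 and −1.16 (adjusted p = 0.00188, 0.000173 and 0.000328).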

How the data were processed

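Skeletal muscle mRNA of 6 bears in winter and summer was measured in 12 stranded single-end libraries. The authors aligned the reads to the assembly ASM358476v1 with TopHat 2.1.1, counted them per gene on the reverse strand with featureCounts 1.6.2 and deposited raw counts, without normalization or filter. Labels and the paper's methods name different Bowtie 2 versions. Libraries were run 6 to a lane, and the sources used here do not say which lane held which library, so lane could not be modelled. Column titles gave the bear and the season. The 10 genes, the 6 pathway lists and the 6 marker lists were chosen with earlier results of these data known. Some single markers are not reported here. LOC numbers were matched as gene IDs to RefSeq symbols of UrsArc2.0 (423 matched, LDHA among them). Its coordinates are of another build and transcript lengths are not given, so neither positions nor levels between genes are given.

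In R 4.3.3, genes with fewer than 30 reads in all were dropped, TMM scaling was applied, and the seasons were compared in edgeR 4.0.16 (glmQLFit, glmQLFTest) with season as the only term and Benjamini-Hochberg adjustment. The standard error is the size of the log2 fold change over the root of the F statistic. CPM were TMM-scaled, and log2 CPM used a prior count of 2. Ratios used 0.5 added to each count. A call is an adjusted p below 0.05. Named pathway genes were the 3 largest called changes per list and direction, plus a few chosen by name, of which SLC16A1 is not analysed here, so 4 of 5 planned ratios were computed.

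Depth was 16742406 to 32140160 reads, and intervals cover the spread between these libraries. The lowest chi-square per gene between libraries of a season was 39.0, so none was a copy. The numbers pair the samples because both biopsies came from the same animal. After subtracting season means, libraries correlated at 0.0903 to 0.344 within a bear and at a median of −0.0634 over the 30 pairs of different bears. Alternatives were edgeR blocked by bear (replicate block), DESeq2 1.42.0 with and without it, limma 3.58.1 voom, RLE, library totals, no filter, filterByExpr, a stricter threshold, each bear left out and, added after the data were seen, the winter library of bear 1509 left out. Counts of 17058 genes were simulated in the winter against summer design, with 198 genes changed and no bear effect. On them edgeR made 9 false calls and found 42.9% of the 2-fold and 78% of the 4-fold changes. In the real libraries 39.5% of genes were called, so these rates may not hold for them.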

Additional observations from a re-analysis of the deposited data

Results flagged for a closer look

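In 5 of 88 groups of 6 libraries, the gap between an extreme library and its nearest neighbour was above Dixon's 95% critical value, which chance alone passes in about 1 of 20 groups. SLC2A4 was at 4.20 log2 CPM in the winter library of bear 1509, and at 5.18 to 5.45 in the other winter libraries. TBC1D4 was at 6.48 log2 CPM in the winter library of bear 1317, against 7.07 to 7.31. SLC16A4 was at −1.45 log2 CPM in the summer library of bear 1511, against −0.66 to −0.20. MLX was at 5.02 log2 CPM in the winter library of bear 1511, against 4.42 to 4.60. MEF2C was at 8.35 log2 CPM in the summer library of bear 1305, against 8.56 to 8.66.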

How the results depend on the processing

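The count of all genes called went from 6831 to 4154 with an adjusted p below 0.01 and the fold limits. The 0 genes of the 10 called higher became 1, TXNIP, in DESeq2, in DESeq2 blocked by bear and in limma voom (1 each), and the left-out bears gave 0 to 1, the 1 being without bear 1316. The number called lower was 2 or 3 under each alternative, 3 with the replicate block. SLC2A3 changed sign with library totals (−0.014), and over the left-out bears it ran from −0.19 to 0.20. SLC2A1 ran from −0.99 to 0.073 and BSG from −0.033 to 0.26. The log2 ratio of SLC2A1 to SLC2A4 ran from −0.83 to 0.25. The cause was not tested. Pathway calls stayed between 29 and 49, against 43. In edgeR with the replicate block, SLC2A12 was the 1 gene of the 10 whose call changed. Depth was lowest for SLC2A1 among the 10, at 5 to 48 reads per library, and its part in the missing call was not tested. The ratio of SLC16A3 to SLC16A1 was not run.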
